A study of Mus musculus with 12 samples.

Results

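The cytosolic ribosomal protein genes were taken as the rows of the expression table whose gene symbol is Rpl or Rps followed by a number and at most 1 further letter. This naming rule found 79 genes among the 55401 rows, 48 with a symbol of the large ribosomal subunit (Rpl) and 31 of the small subunit (Rps). In the GENCODE annotation 76 of them are protein coding and 3 are labelled as pseudogenes (Rps4l, Rpl6l and Rpl32l), and rows named as pseudogenes of a ribosomal protein (symbols that hold -ps) fall outside the rule. The rule also misses 7 canonical ribosomal protein genes with other kinds of names (such as Rplp0, Rplp1 and Rpsa), which are given apart. Of the 79 genes, 77 had at least 1 FPKM in at least 3 libraries and were tested, and FPKM here is the number of fragments per kilobase of transcript and per 1000000 fragments of the library. The 2 others were Rpl10l, listed at 0 in all 12 libraries, and Rpl3l, at no more than 1.1 FPKM.

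The values came from 12 bulk RNA libraries of orthotopic oral tumours, grown in C57BL/6 mice from MTC-Q1 oral cancer cells (subline Q1-2 in the sample names) and described by the study as a luciferase-expressing line put into the cheek lining of mice bought at 6 to 8 weeks of age. The same tumour line is given for all groups, and 3 libraries each came from mice given a control isotype IgG1-Fc (Ctrl-IgG, 30 mg/kg), an antibody against the macrophage growth factor receptor CSF1R (aCSF1R, 30 mg/kg), recombinant interleukin-10 joined to an Fc part (IL-10-Fc, 20 mg/kg) or interleukin-10 fused to that antibody (BF10, 36 mg/kg). Treatment began at a tumour volume of 100 mm3, and the labels give the number of doses as 4 in one place and as 6 in another. The labels name no animal or culture for a library, so the p-values measure the spread between these libraries.

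The libraries did not differ by treatment alone. Xist, the RNA that silences an X chromosome in female cells, was at or under 0.04 FPKM in every Ctrl-IgG and aCSF1R library and between 17.1 and 30.7 in every IL-10-Fc and BF10 library, and the epithelial keratins Krt8 and Krt18 were at or under 0.28 FPKM in the former and at or above 169 in the latter. H2-Ea, an MHC class II gene that C57BL/6 mice are known not to express, was at or under 0.27 FPKM in the former and between 553 and 1727 in the latter, so that the labelled strain was not borne out by this gene on the latter side, and whether the line or the strain differed between the sides was not tested. The other carcinoma markers Krt5, Krt14 and Krt6a were near 0 in Ctrl-IgG replicates 1 and 2 and aCSF1R replicate 3, and Krt14 reached 431 FPKM in Ctrl-IgG replicate 3, so no keratin set marked all 12 libraries as carcinoma. Any comparison of IL-10-Fc or BF10 with Ctrl-IgG or aCSF1R therefore also compares these 2 sides of 6 libraries, and the treatment and the side cannot be told apart. The FPKM sum of 4 libraries (BF10 replicate 1, Ctrl-IgG replicate 2 and both IL-10-Fc replicate 1 and IL-10-Fc replicate 2) lay between 819001 and 976950, above the 637596 to 701275 of the other 8, and these 4 are called high-sum libraries. All 4 carry a number from 1 to 4 after the letter C of their sample name, as do 3 of the other 8 (Ctrl-IgG replicate 1 and aCSF1R replicates 1 and 2), and what this number stands for is not given. The mitochondrially encoded RNAs held 6.57% to 9.04% of the sum in the high-sum libraries and 2.99% to 3.61% in the other 8.

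A cytosolic ribosome is built from a large and a small subunit, each a shell of proteins around ribosomal RNA, and most of its proteins are made in equal numbers from a single active gene each. Their mRNAs are short, abundant and usually begin with a C followed by a run of C and T letters (the 5′ terminal oligopyrimidine or TOP element), through which growth signalling by mTOR sets their translation. Retroposition has scattered many intronless copies of these genes over the mouse genome, and short reads can fit a gene and a near-identical copy almost equally well.

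Near-identical copies stood beside most members, and the windows below show, for 3 members described further on, how small the difference in sequence can be. A search of the GENCODE transcripts of all other rows found 624 copies of 72 members, with at least 95% identity over at least 50% of the copy, and 611 of the copies are annotated as pseudogenes. Rpl35a, a large-subunit protein (chr16:33056453-33060189 on the plus strand of GRCm38), differs from its copy Gm10243, a processed pseudogene on chromosome 6, at 1 of 333 coding bases. Rpl26 (chr11:68901583-68906989, plus strand), a large-subunit protein beside the exit of the peptide tunnel, differs from the processed pseudogene Gm15772 at 2 of 438 bases. Rpl29 (chr9:106429454-106431568, plus strand), another large-subunit protein, differs from the processed pseudogene Gm13841 at 3 of 483 bases. Positions count from the A of the start codon of the member, all 6 differences stand at the third base of a codon, and capitals mark the differing base in these 41-base windows of coding sequence read 5′ to 3′.
Rpl35a, coding bases 136 to 176 across an exon junction within chr16:33057514-33058690: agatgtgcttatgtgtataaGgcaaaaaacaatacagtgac
Gm10243, chr6:48523653-48523693, plus strand, substitution G156A: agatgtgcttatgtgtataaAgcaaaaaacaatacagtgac
Rpl26, coding bases 268 to 308 in 1 exon, chr11:68903278-68903318: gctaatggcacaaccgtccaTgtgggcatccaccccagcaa
Gm15772, chr5:3236698-3236738, plus strand, substitution T288C: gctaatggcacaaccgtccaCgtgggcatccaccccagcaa
Rpl29, coding bases 52 to 92 in 1 exon, chr9:106430322-106430362: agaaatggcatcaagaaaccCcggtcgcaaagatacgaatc
Gm13841, chr5:115802068-115802108, minus strand, substitution C72A: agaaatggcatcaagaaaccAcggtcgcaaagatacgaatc
The remaining differences were C177T in Gm15772 and C300T and T423C in Gm13841. The single G156A substitution was shared by 5 copies of Rpl35a (Gm10243, Rpl35a-ps2, Rpl35a-ps3, Rpl35a-ps4 and Rpl35a-ps6), and the 3 differences of Gm13841 were also those of Gm8210, a further copy of Rpl29.

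The windows shown next hold the TOP-like run at the start of 4 members whose levels are described further on. RefSeq promoter windows on GRCm38.p6 matched 56 of the 77 tested members. A C followed by at least 5 further C or T letters, searched on the transcript strand and overlapping the 10 bases on either side of the RefSeq start, was found in 36 of these 56 members (64.3%) and in 26.6% of all 27025 genes with a window. RefSeq lists 3 starts for Rpl35a, of which 1 had the run and is shown. Rpl28 also had a run, and the window of Rpl41 had none. Each window runs from 40 bases before the start to 20 bases after it, and capitals mark the run.
Rpl35a, chr16:33056442-33056501, plus strand: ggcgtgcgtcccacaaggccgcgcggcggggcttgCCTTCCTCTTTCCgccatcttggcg
Rpl39, chrX:37085203-37085262, minus strand: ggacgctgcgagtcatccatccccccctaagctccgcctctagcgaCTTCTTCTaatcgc
Rps2, chr17:24720023-24720082, plus strand: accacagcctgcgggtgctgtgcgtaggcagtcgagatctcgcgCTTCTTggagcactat
Rps9, chr7:3704001-3704060, plus strand: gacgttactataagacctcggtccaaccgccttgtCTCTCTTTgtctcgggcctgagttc

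Together the 79 ribosomal protein genes made up between 12.8% and 24.5% of all FPKM in a library. With the 7 canonical genes that the naming rule misses the range was 14.63% to 26.85%. With the sequence copies of the 79 genes instead it was 14.45% to 29.93%. The 79 genes summed to 104232, 155335 and 93045 FPKM in Ctrl-IgG replicates 1 to 3 and to 98877, 84107 and 103407 in aCSF1R. The sums were 214026, 239377 and 92554 in IL-10-Fc, with 173149, 84539 and 93524 in BF10. The 4 high-sum libraries stood above all others, with no overlap between the 4 and the other 8.

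As a share of the library the genes held 14.9%, 19.0% and 13.7% in Ctrl-IgG, 14.4%, 12.8% and 14.9% in aCSF1R, 22.5%, 24.5% and 14.1% in IL-10-Fc, with 20.2%, 13.3% and 13.9% in BF10. The members are part of the FPKM sum by which the libraries were split, but the same 4 libraries were also the highest by the sum of all other genes. Of the mean difference in FPKM sum between the 4 and the 8, the members gave 44.5%, the mitochondrially encoded RNAs 20.9%, the sequence copies of members 11.3% and the other 54654 genes 19.6%. The mean summed level of the members was 2.07-fold in the 4 relative to the 8, that of the mitochondrially encoded RNAs 3.21-fold and that of the sequence copies 2.89-fold. For the 7 canonical genes that the naming rule misses it was 1.63-fold, and for the other 54654 genes 1.08-fold. With bulk samples, a change in the make-up of cells and a change in RNA per cell cannot be told apart.

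**Figure D1:**
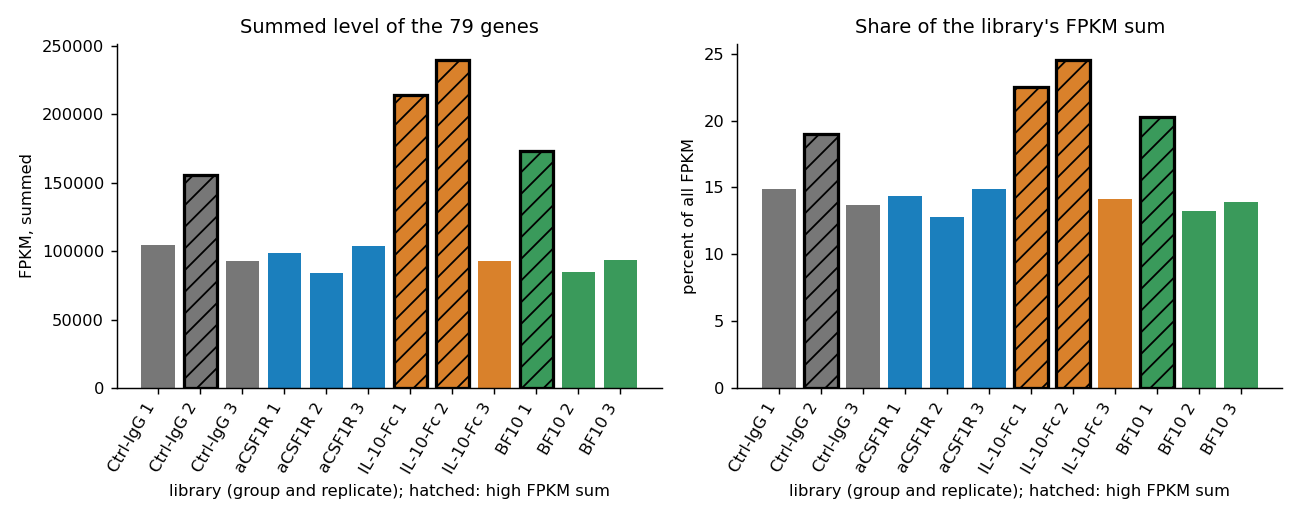
Summed FPKM of the 79 ribosomal protein genes (left) and their percent of the library's FPKM sum (right), 1 bar for each of the 12 libraries, coloured by treatment group and hatched where the FPKM sum of the library was high. The 4 hatched bars reach 19.0% to 24.5%, and the 8 plain bars lie between 12.8% and 14.9%.

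The 2 subunits kept nearly the same proportion throughout. The summed FPKM of the Rpl genes over that of the Rps genes lay between 1.36 and 1.4 in the 6 of Ctrl-IgG and aCSF1R and between 1.31 and 1.35 in the 6 of IL-10-Fc and BF10, while the sum itself ranged from 84107 to 239377 FPKM. The levels of single members were far less even, although the ribosome holds their proteins in equal numbers. Of the 79 genes, 73 had a mean of at least 50 FPKM, and the 6 below were the paralogs and annotated pseudogenes Rpl6l, Rps4l, Rpl32l, Rpl39l, Rpl3l and Rpl10l.

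Among the highest members by mean FPKM, which is scaled by transcript length, were Rpl41, a very short basic peptide of the large subunit, and Rps27, a zinc-binding protein of the small subunit. Rpl41 was at 3086, 5322 and 2919 in Ctrl-IgG, 2815, 2536 and 3142 in aCSF1R, 7823, 8414 and 3099 in IL-10-Fc, with 6326, 2609 and 2944 in BF10 FPKM. Rps27 was at 1944, 3575 and 1763 in Ctrl-IgG, 1948, 1645 and 2134 in aCSF1R, 6668, 8021 and 2157 in IL-10-Fc, with 5079.6, 1896 and 2139 in BF10. In both genes the high-sum libraries were the highest of their own group, and IL-10-Fc replicates 1 and 2 the highest of all. At the low end Rpl32l, an annotated pseudogene, reached 3.85 FPKM.

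High-sum and other libraries were then compared gene by gene inside each of the 3 groups that hold both kinds, as a description without a test, since the split rests on the FPKM values themselves. Of the 77 tested members, 63 were higher in every high-sum library than in the other libraries of its own group, and 5 were lower in every one. Over all 15813 tested genes the same patterns were shown by 17.7% (higher) and 45.9% (lower). The median member was higher by 0.98 on the log2(FPKM + 1) scale, and the median tested gene differed by -0.42. Most members thus had higher FPKM in libraries in which the median gene had lower FPKM.

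The same counts were made under other scalings of the libraries. With libraries rescaled to the same total, 53 members were higher and 8 lower in all high-sum libraries, with median-of-ratios size factors 68 and 1, and with scaling to the sum of the genes that are neither members nor mitochondrially encoded 61 and 7. The median log2 difference of the members was 0.61, 1.5 and 0.80 under these scalings, against -0.74, -0.07 and -0.55 for all tested genes. Over all tested genes, 10.7% were higher and 56.8% lower with the equal total, 29.3% and 31% with size factors and 14.2% and 50.8% with scaling to the other genes.

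**Figure D2:**
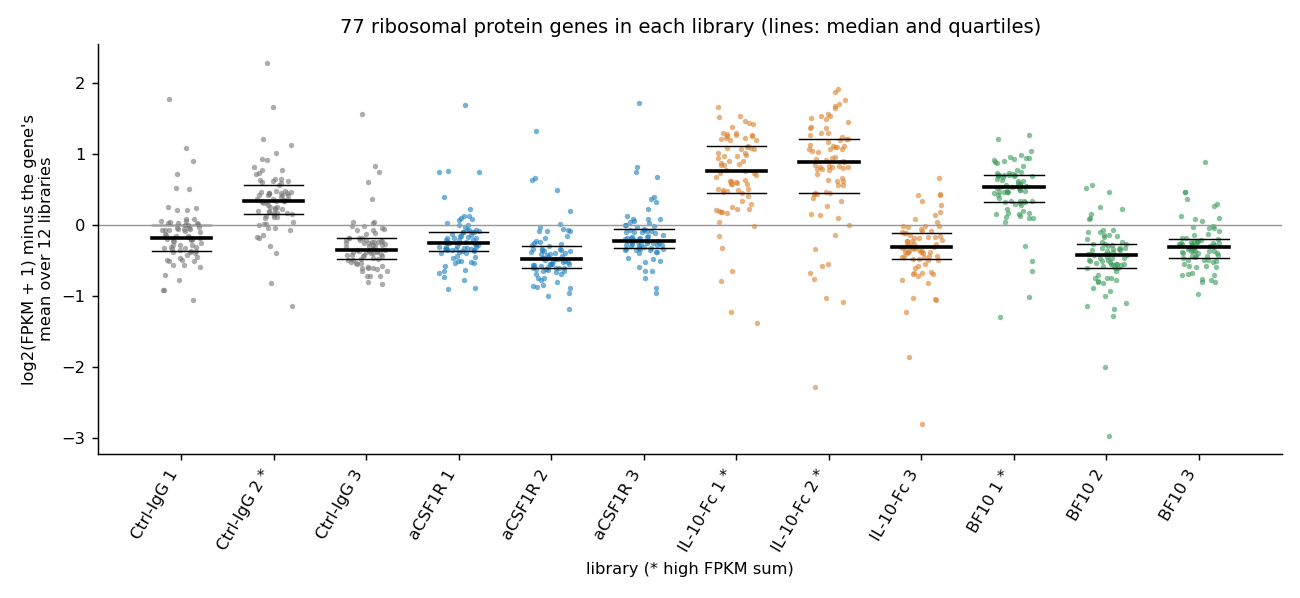
Each point is 1 of 77 ribosomal protein genes in 1 library, as log2(FPKM + 1) minus the mean of that gene over the 12 libraries, with lines at the median and quartiles and a star at the 4 high-sum libraries. The medians are 0.35, 0.76, 0.89 and 0.53 in the starred libraries and below 0 in the other 8.

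The shift took in most members at once. In Ctrl-IgG replicate 2, 66 of the 77 members lay above their own mean over the 12 libraries, in IL-10-Fc replicates 1 and 2, 70 and 68, and in BF10 replicate 1, 72. In the other 8 libraries the number was between 6 and 20. The mean of a gene takes in the high-sum libraries themselves, so the low counts in the other 8 partly follow from the high ones. The median tested gene lay at -0.16, -0.43, -0.56 and -0.24 from its own mean in the high-sum libraries, in the same order, and at 0.03 to 0.23 in the other 8. The largest mean differences on the log2(FPKM + 1) scale belonged to Rps27a, which encodes a small-subunit protein fused to ubiquitin, and to Rpl39, a short protein lining the exit tunnel. Some members of low level had larger plain folds in single groups, such as Rpl6l at 3.52-fold in BF10. Rps27a in the high-sum libraries was at 2.17-fold in Ctrl-IgG, 4.24-fold in IL-10-Fc and 2.9-fold in BF10, relative to the mean of the other libraries of the group. Rpl39 was at 2.04-fold in Ctrl-IgG, 4.19-fold in IL-10-Fc and 3.02-fold in BF10.

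A small set of members, 5 of 77, went the other way in FPKM, beside 45.9% lower over all tested genes. Their number moved with the scaling. It was 8 with an equal total, 7 with scaling to the other genes, 1 with size factors and 0 with the GC and length trend removed. Rps2, a small-subunit protein at the entry of the mRNA channel, was at 988, 498 and 827 in Ctrl-IgG, 786, 733 and 741 in aCSF1R, 178, 94.2 and 529 in IL-10-Fc, with 229, 498 and 558 in BF10. Every high-sum library was below the other libraries of its group, and the high-sum level was 0.55-fold in Ctrl-IgG, 0.26-fold in IL-10-Fc and 0.43-fold in BF10. Rpl8, which lies at the peptidyl transferase centre of the large subunit, was at 1632, 1239.9 and 1488 in Ctrl-IgG, 1507, 1316 and 1504 in aCSF1R, 729, 564 and 1133 in IL-10-Fc, with 932, 1094 and 1222 in BF10, again lower in each high-sum library than in the rest of its group. Rpl28, of the large subunit, was at 1003, 875 and 981 in Ctrl-IgG, 1078, 938 and 1047 in aCSF1R, 786, 581 and 1253 in IL-10-Fc, with 1063, 1177 and 1276 in BF10. Rps9 and Rps13, both of the small subunit, were the other 2 of the 5 members lower in every high-sum library, with mean log2 differences of -0.38 and -0.30.

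Base composition moved with the size of the difference. Across the 73 members above a mean of 50 FPKM, the GC content of the transcripts and the mean log2 difference between high-sum and other libraries had a Spearman rho of -0.35, and transcript length and the difference a rho of -0.25. Over 15795 tested genes the values were -0.53 for GC and -0.24 for length. These are correlations across genes of the same libraries, and genes are not independent replicates. The 19 members of lowest GC content (41.3% to 48.6%) had a median log2 difference of 1.12 with 0 of them below 0, and the 18 of highest GC content (55.1% to 60.8%) a median of 0.63 with 3 below 0. When each library's trend on GC content and length over all genes was removed, 67 members were higher and 0 lower in all high-sum libraries, at a median of 1.07, beside 26.5% and 25.6% of all tested genes and a median of 0.01 over them. The members are also short, with a median transcript of 696 bases against 1784 over all tested genes. The part of base composition, length or library preparation in the shift was not tested.

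**Figure D3:**
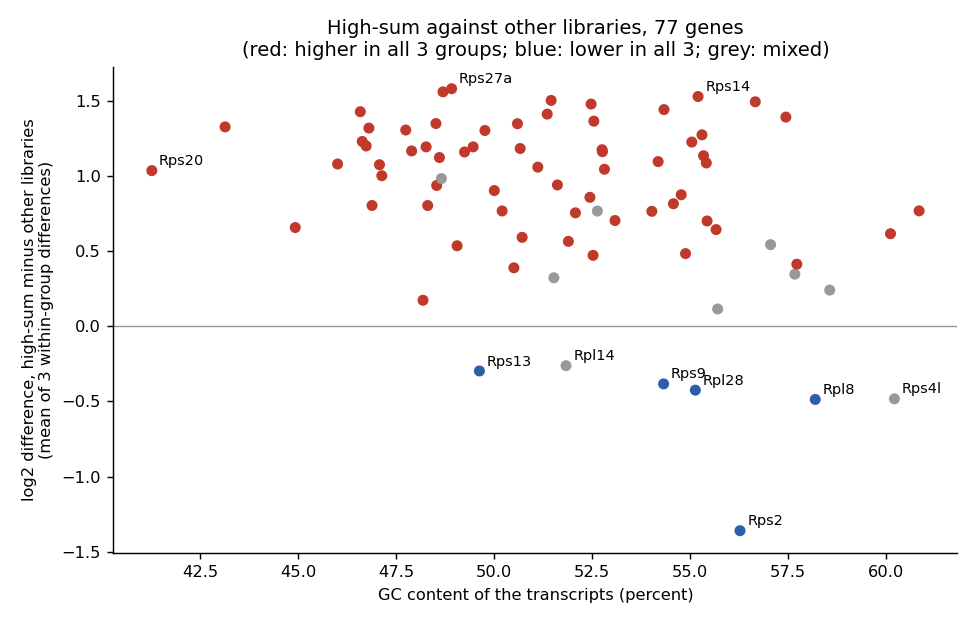
For 77 ribosomal protein genes, the mean of the 3 within-group log2 differences between high-sum and other libraries (vertical) against the GC content of the gene's transcripts in percent (horizontal), in red where higher in all high-sum libraries (63 genes), in blue where lower in all (5) and in grey otherwise. Rps2 lies lowest at -1.36 and Rps27a highest at 1.58.

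Coordination among the members was described within each side of 6 libraries. Over the 2628 pairs of the 73 members above a mean of 50 FPKM, the median Pearson r of log2(FPKM + 1) was 0.95 over the Ctrl-IgG and aCSF1R side and 0.98 over the other side, against 0.12 and 0.36 over all pairs of tested genes. These values share libraries and rest largely on the high-sum libraries, 1 on the former side and 3 on the latter. Over the other 8 libraries, with each value taken from the mean of its side, the median r of the members was 0.81 (quartiles 0.66 to 0.89), and that of all tested genes 0.02. The mean of these 73 members in a library accounted for 54.7% of their variance in those 8 libraries, and with all 77 tested members the share was 39.9%. The 78 tested proteins of the mitochondrial ribosome, a separate machine of bacterial descent, had a median r of 0.52 over the same 8 libraries, and of 0.28 and 0.19 within the sides of 6. Their mean accounted for 45.2% of their variance in the 8 libraries.

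The 3 members whose log2 values followed the mean of the other members most closely over the 12 libraries were Rpl34 (Pearson r = 0.996), Rpl12 (r = 0.995) and Rpl32 (r = 0.994), all of the large subunit. Rpl34 was at 1612, 2966 and 1357 in Ctrl-IgG, 1492, 1258 and 1699.5 in aCSF1R, 4589, 5369 and 1345 in IL-10-Fc, with 3278, 1121 and 1301 in BF10. Those that followed it least were Rps2 (r = -0.853), Rpl28 (r = -0.772) and Rpl8 (r = -0.769), which ran opposite to the rest in FPKM without further scaling. This measure is a description in which the high-sum libraries weigh most.

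For a few members the row of the gene and the rows of its copies changed places between the 2 sides of the series. Rpl35a was at 1595, 2280.2 and 1373 in Ctrl-IgG, 1507, 1169.6 and 1533 in aCSF1R, 197, 218 and 65.4 in IL-10-Fc, with 188, 58.2 and 235 in BF10. All 6 Ctrl-IgG and aCSF1R libraries lay at or above 1169.6 FPKM and all 6 IL-10-Fc and BF10 libraries at or under 235, with no overlap. The 14 copies of Rpl35a together were at 183, 484 and 238 in Ctrl-IgG, 244, 228 and 290.3 in aCSF1R, 3822, 4569.6 and 1346 in IL-10-Fc, with 2944, 1274 and 1304 in BF10, the reverse order. Gene and copies summed gave 1778, 2765 and 1611 in Ctrl-IgG, 1752, 1398 and 1823 in aCSF1R, 4019, 4788 and 1411 in IL-10-Fc, with 3132, 1333 and 1539 in BF10. In that sum the sides overlapped, and the 4 high-sum libraries were again the highest.

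Rpl26 behaved alike. It was at 1697, 3257 and 1565 in Ctrl-IgG, 1716, 1442 and 1803 in aCSF1R, 1018, 1129 and 281 in IL-10-Fc, with 719, 256 and 585 in BF10, and its 7 copies, nearly all of it Gm15772, were at 77.9, 137 and 59.5 in Ctrl-IgG, 72.2, 54.8 and 75.7 in aCSF1R, 6078, 7240.5 and 1658 in IL-10-Fc, with 3876, 1461 and 1280.2 in BF10. Rpl29 was at 515, 638 and 462 in Ctrl-IgG, 463, 428 and 464 in aCSF1R, 159, 171 and 117 in IL-10-Fc, with 175, 125 and 195 in BF10. Its 36 copies were at or under 2.45 FPKM in every Ctrl-IgG and aCSF1R library and at 459, 496 and 246 in IL-10-Fc, with 455, 247 and 194 in BF10. The copies held 84.7% to 95.6% of the summed level of Rpl35a, 68.6% to 86.5% of Rpl26 and 49.9% to 74.4% of Rpl29 in IL-10-Fc and BF10 libraries, and at most 17.5%, 4.39% and 0.53% in the others. BF10 replicate 3 had the highest Rpl35a and Rpl29 of its side and, among the low-sum libraries of its side, the highest Rpl26, and it was also the only library of that side with more than a trace of the Y-linked Eif2s3y (3.29 FPKM against at most 0.05). The part of this difference between libraries in the values of the copies was not tested.

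Copies of other members also stood apart between the sides. Rps18-ps6 (chr13:97760072-97760632), annotated as protein coding and with 99.1% identity to the coding sequence of Rps18, was at 0.15, 1.04 and 0.65 FPKM in Ctrl-IgG and at 1379, 1491 and 505 in IL-10-Fc. Rps18 itself, a small-subunit protein, was at 2155, 3527 and 1911 in Ctrl-IgG, 1971, 1705 and 2123 in aCSF1R, 3148, 3649.8 and 1284 in IL-10-Fc, with 2605, 1087 and 1374 in BF10. For Rps2 the 31 copies held at most 1.23% of the summed level in Ctrl-IgG and aCSF1R libraries and 23.3% to 31.9% in IL-10-Fc and BF10. Over all members, copies held 10.8% to 11.6% of the level of members and copies on the former side and 14.7% to 18.3% on the latter. Of 180 copies that passed the filter, 31 were called higher and 5 lower in IL-10-Fc against Ctrl-IgG, 41 and 7 in IL-10-Fc against aCSF1R, 18 and 6 in BF10 against Ctrl-IgG and 22 and 5 in BF10 against aCSF1R, with 0 called in the 2 comparisons within a side. Over all tested genes the shares called higher in these 4 comparisons were 10.1%, 11.0%, 11.8% and 11.0%, and those called lower 23.6%, 31.2%, 13.2% and 14.0%. Some of these copies, such as Gm13841 (at or under 0.18 FPKM in every Ctrl-IgG and aCSF1R library), passed the filter only through the side where they are high. Some also share 1 set of values, as Gm13841 and Gm8210 do in all 12 libraries. The calls of copies are therefore a description and no support for a difference. Copies could go opposite ways for the same member. The processed pseudogene Gm9493, a copy of the small-subunit gene Rps7, was at 93.6, 217 and 78.7 in Ctrl-IgG, 91.3, 73.9 and 94.2 in aCSF1R, 0.59, 0.89 and 0 in IL-10-Fc, with 1.46, 0 and 9.59 in BF10, and it was called lower in IL-10-Fc against Ctrl-IgG (log2 difference -6.35, SE 0.70, limma adjusted p = 0.0001). Rps7-ps3, another copy of Rps7, was at 50.4, 105 and 51.1 in Ctrl-IgG, 45.9, 52.7 and 49.5 in aCSF1R, 2480.1, 2832 and 523 in IL-10-Fc, with 1498, 499 and 443 in BF10 and was called higher there (4.55). Rps7 itself was at 1393, 3019 and 1299 in Ctrl-IgG, 1409.6, 1162 and 1507 in aCSF1R, 4329, 5092 and 1144 in IL-10-Fc, with 2783, 1042 and 1211 in BF10, and limma called it in no comparison. The authors' counting could split fragments between a gene and such a copy, so the level of each of these rows by itself is uncertain.

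**Figure D4:**
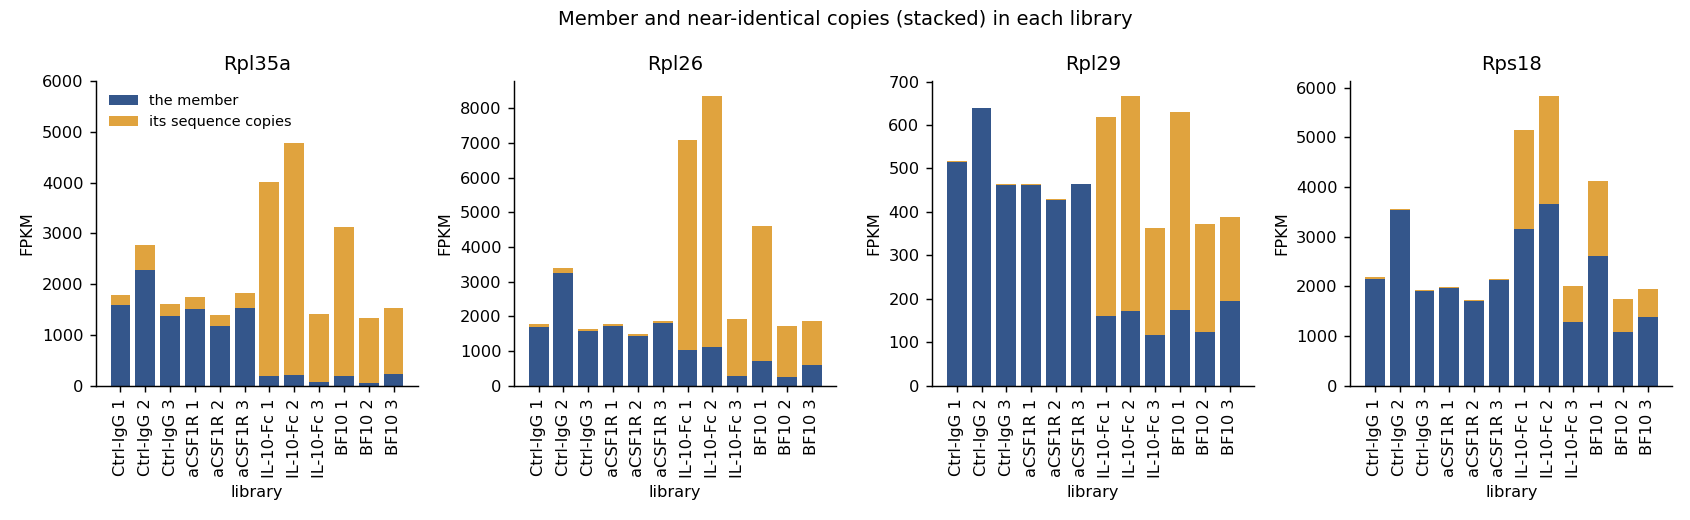
FPKM of Rpl35a, Rpl26, Rpl29 and Rps18 (blue) with the summed FPKM of their near-identical copies stacked on top (orange), 1 bar for each library. Among IL-10-Fc and BF10 libraries the copies hold at least 84.7% of the Rpl35a bar, at least 68.6% of the Rpl26 bar and at least 49.9% of the Rpl29 bar.

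No ribosomal protein gene was called between aCSF1R and Ctrl-IgG. A gene was called at a limma adjusted p under 0.05, adjusted over all 15813 tested genes, with a fold of at least 1.5. In aCSF1R against Ctrl-IgG 0 of 77 members were called, 0 had an unadjusted p under 0.05, and 0% of all tested genes were called (437 of them had an unadjusted p under 0.05). The median log2 difference of the members was -0.27, beside 0.11 over all tested genes, and 6 members were above 0. The 1 high-sum library of these 2 groups was Ctrl-IgG replicate 2, and without it the median of the members was -0.05.

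In IL-10-Fc against Ctrl-IgG, 5 of 77 members were called higher, beside 10.1% of all tested genes, and 5 were called lower, beside 23.6%. The rises were Rpl31, Rpl39l, Rpl7, Rps12 and Rpl37a and the falls Rpl35a, Rpl29, Rps2, Rpl26 and Rpl8, and both shares of members were below the background. Rpl39l was at or under 0.64 FPKM in each of the 6 libraries of Ctrl-IgG or aCSF1R and passed the filter on low values only through the other side, so neither its calls nor its lack of overlap are support for a difference. With genes kept at a mean of at least 5 FPKM, which leaves it out, 4 members were called higher and 5 lower. That filter also changes the set of all tested genes, and no share over that set is given. Between the 2 sides, the macrophage markers summed to 119 to 337 FPKM in Ctrl-IgG and aCSF1R and 376 to 538 in IL-10-Fc and BF10, the fibroblast markers to 147 to 578 and 859.5 to 2246 and the 3 neutrophil markers to 29.0 to 328 and 481 to 4388, without overlap in these 3 sums. Not every gene of these lists followed its sum. C1qa was at 55.4 to 231 and 274 to 399, but Cd68 was 28.8, 19.3 and 32.4 in the 3 high-sum libraries of the latter side, below the 41.7 to 70.8 of the former, and the neutrophil gene Csf3r overlapped (2.06 to 6.92 and 1.66 to 12.9). The part of cell make-up in the calls was not tested. Rpl31, a large-subunit protein at the exit of the tunnel, was at 1230.3, 2323 and 1187 in Ctrl-IgG, 1142, 928 and 1255 in aCSF1R, 6724, 7979.7 and 2027 in IL-10-Fc, with 4883, 1782 and 1810.4 in BF10. IL-10-Fc was above Ctrl-IgG (log2 difference 1.67, SE 0.55, limma adjusted p = 0.037), although IL-10-Fc replicate 3 lay below Ctrl-IgG replicate 2, and the call held in 5 of the 12 fits with 1 library left out. Rpl7, a large-subunit protein, was at 1469.5, 2633 and 1379 in Ctrl-IgG and 7009, 8137 and 2221 in IL-10-Fc (log2 difference 1.52, SE 0.51, limma adjusted p = 0.041), with the same overlap, and held in 5 of the 12 fits. Rps12, of the small subunit, and Rpl37a, a zinc-binding protein of the large subunit, had log2 differences of 1.40 and 1.27, called in 3 of the 12 fits and 7 of the 12 fits. The median member was higher by 0.54, beside -0.39 for all tested genes, with 64 of 77 above 0, and was 0.34 without IL-10-Fc replicate 2 and 0.86 without IL-10-Fc replicate 3.

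The largest fall was that of Rpl35a (log2 difference -3.59, SE 0.55, limma adjusted p = 0.00071), followed by Rpl29 (log2 difference -1.85, SE 0.23, limma adjusted p = 0.00021) and Rps2 (log2 difference -1.83, SE 0.56, limma adjusted p = 0.026). The calls of Rpl35a and Rpl29 held in all 12 fits with 1 library left out, that of Rps2 in 8 of the 12 fits, that of Rpl8 in 8 of the 12 fits and that of Rpl26 in 3 of the 12 fits. With members summed with their copies, the difference of Rpl35a was 0.59 (SE 0.47), that of Rpl29 -0.01 (SE 0.28), that of Rpl26 1.19 (SE 0.56) and that of Rps2 -1.32 (SE 0.55). None of these 4 was then called, and Rpl8, with 1 copy, was the 1 fall left among 6 called members, beside 33.9% of all tested genes. Without IL-10-Fc replicate 3, the 1 library of that group that was not high-sum, 37 members were called higher and 4 lower, and without IL-10-Fc replicate 1 or Ctrl-IgG replicate 1 the count was 3 in all. Shares over all tested genes are not given for these fits, so the counts cannot be set against a background.

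Against aCSF1R, whose 3 libraries were all low in sum, IL-10-Fc had the largest number of members called. Of 77 members 11 were called higher, beside 11.0% of all tested genes, and 4 lower, beside 31.2%. In this fit the share called higher was close to the background and the share called lower was below it. The former moved with the scaling: with median-of-ratios size factors 24 members were called higher, beside 2926 of all 15813 tested genes. With the number in the sample name as covariate 36 members were called higher, but no share over all tested genes is given for that fit. At a mean of at least 5 FPKM, which leaves out Rpl39l, 12 were called higher and 4 lower, again without a share over all genes. The rises were Rpl31 (log2 difference 2.12, SE 0.55, limma adjusted p = 0.011), Rpl7 (log2 difference 1.88, SE 0.51, limma adjusted p = 0.015), Rpl39l, Rps12, Rpl37a, Rpl39, Rps4x, Rpl24, Rps20, Rpl23 and Rpl10a, of which Rpl39l and Rpl37a were called in all 12 fits with 1 library left out, Rpl31 in 11 of the 12 fits and Rpl39 and Rpl10a in 3 of the 12 fits. The falls were Rpl35a (-3.29), Rps2 (-1.86), Rpl29 (-1.61) and Rpl8 (-0.89) on the log2 scale. The median member differed by 0.76, beside -0.51 for all tested genes. Without IL-10-Fc replicate 3 the counts were 50 higher and 5 lower, and without IL-10-Fc replicate 2 they were 2 and 2. The total was 5 without IL-10-Fc replicate 1, 6 without aCSF1R replicate 2, 7 without aCSF1R replicate 1 or 3 and 25 without BF10 replicate 1. No share over all tested genes is given for the fits with 1 library left out, so their counts do not set the members against other genes. With members summed with their copies, 11 were called higher (Rpl10 in place of Rpl10a) and 1 lower (Rpl8), beside 42.4% of all tested genes called in either direction.

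BF10 differed from Ctrl-IgG in 6 members. It had 3 called higher (Rps4l, Rpl39l and Rps9), beside 11.8% of all tested genes, and 3 lower (Rpl35a, Rpl26 and Rpl29), beside 13.2%, both shares below the background. Without Rpl39l and Rps4l, at a mean of at least 5 FPKM, 1 was called higher (Rps9) and 3 lower, with no share over all genes given for that filter. Rps9, a small-subunit protein, was at 1007, 586 and 884 in Ctrl-IgG, 909.9, 745 and 889 in aCSF1R, 1281, 1114 and 1387 in IL-10-Fc, with 1208, 1431 and 1437 in BF10. BF10 lay above Ctrl-IgG without overlap (log2 difference 0.75, SE 0.24, limma adjusted p = 0.04), a call that held in 4 of the 12 fits with 1 library left out. The median member differed by 0.01, beside -0.12 over all tested genes, and its sign rested on single libraries: with BF10 replicate 1 left out it was -0.32, and with Ctrl-IgG replicate 1, 2 or 3 left out -0.02, 0.21 or -0.13. Rpl35a fell by 3.63 and Rpl26 by 2.11 on the log2 scale, and with their copies the differences were -0.10 (SE 0.47) and 0.20 (SE 0.56). The call of Rpl26 held in 10 of the 12 fits with 1 library left out, that of Rpl39l in 7 of the 12 fits and those of Rps4l, Rpl35a and Rpl29 in all 12. Without BF10 replicate 2, 3 members were called, and no share over all genes is given for that fit. With copies summed, 3 members were called higher and 0 lower, beside 25.1% of all tested genes called in either direction.

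Against aCSF1R, BF10 had 1 member called higher, Rpl39l, beside 11.0% of all tested genes, and 3 called lower, beside 14.0%, which were Rpl35a (-3.33), Rpl26 (-1.79) and Rpl29 (-1.47) on the log2 scale. Both shares were below the background. Rpl39l entered the test only through libraries of the IL-10-Fc and BF10 side, and with a mean of at least 5 FPKM 0 members were called higher and 3 lower. With all 77 members the count was 2 without aCSF1R replicate 1 and 9 without IL-10-Fc replicate 3. Neither these fits nor the filter at 5 FPKM has a share over all genes, so their counts cannot be set against a background. Summed with copies, 0 were called lower and 1 higher, beside 25.2% of all tested genes called in either direction. Rpl26 was called in 7 of the 12 fits with 1 library left out. The 4 comparisons between sides share their groups, so their calls are not independent of each other.

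Between BF10 and IL-10-Fc, the 2 groups of the same side, 0 of 77 members were called by limma, 0 had an unadjusted p under 0.05, and 0.0126% of all tested genes were called. The median member differed by -0.57 on the log2 scale (BF10 minus IL-10-Fc), beside 0.34 over all tested genes, with IL-10-Fc holding 2 high-sum libraries and BF10 1. It moved to -1.02 when IL-10-Fc replicate 3 was left out and to -0.89 when BF10 replicate 1 was. With IL-10-Fc replicate 1 or 2 left out it was -0.38 or -0.33, and with BF10 replicate 2 left out -0.35. Without IL-10-Fc replicate 3, 61 members had an unadjusted p under 0.05 and without BF10 replicate 1 there were 38, with 0 called in either fit. A contrast that set the log2 change under BF10 against the added changes under its antibody and cytokine parts called 0 members, beside 0.00632% of all tested genes, and 0 members had an unadjusted p under 0.05.

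**Figure D5:**
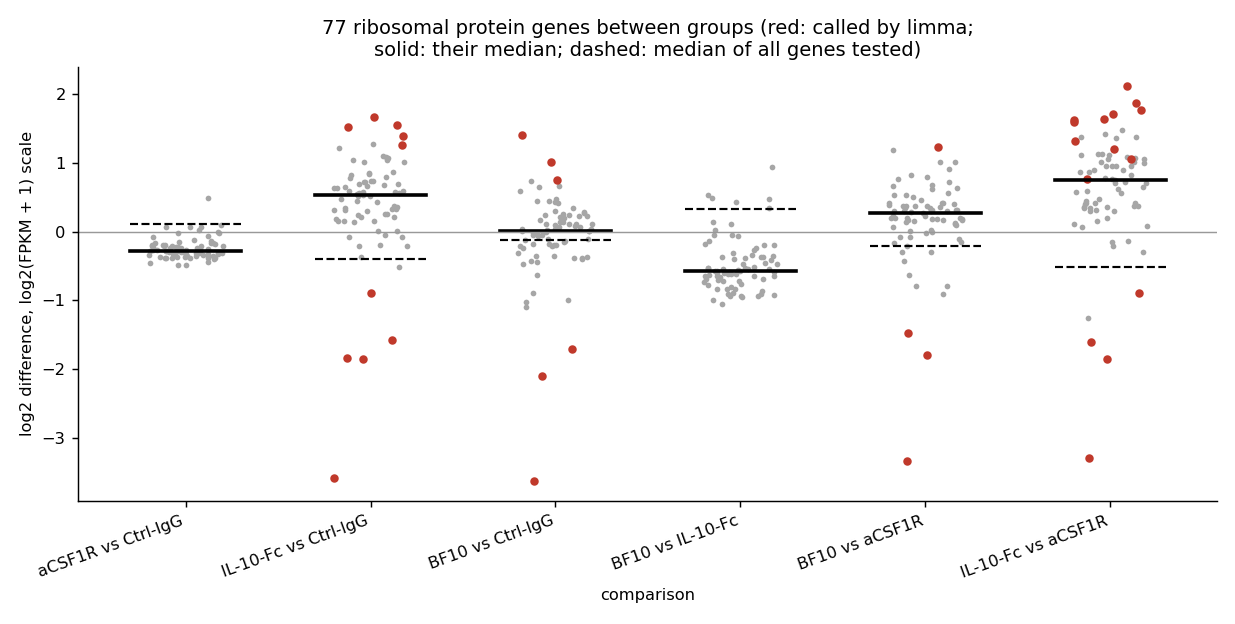
Log2 differences of the 77 tested ribosomal protein genes in the 6 comparisons between groups, on the log2(FPKM + 1) scale, with called genes in red, the median of the members as a solid line and the median of all tested genes as a dashed line. The 2 lines lie farthest apart in IL-10-Fc against aCSF1R, at 0.76 and -0.51, and the lowest red point of each comparison between sides is Rpl35a.

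In all 6 comparisons the median of the members kept its sign under the other scalings, but its size moved. Median-of-ratios size factors moved the median of all tested genes by 0.40 in IL-10-Fc against Ctrl-IgG and by 0.51 in IL-10-Fc against aCSF1R, and rescaling to an equal total moved it by -0.19 and -0.28. Of all called genes, 30% were higher in the first comparison and 26% in the second with FPKM, and 49.9% and 48.6% with size factors, under which 5 and 24 members were called higher and 3 and 2 lower. Relative to the median of all genes, the median member was higher by 0.93 in IL-10-Fc against Ctrl-IgG with FPKM, and by 0.91, 0.90 and 1.05 under the 3 other scalings. Rpl8 in IL-10-Fc against Ctrl-IgG kept its sign under each scaling (-0.38 to -1.11) and was not called with size factors, nor were Rpl26, Rpl7 and Rps12 in that comparison, Rpl29 and Rpl8 in IL-10-Fc against aCSF1R, Rpl26 and Rpl39l in BF10 against Ctrl-IgG or Rpl26 in BF10 against aCSF1R. Every called member kept its sign under the 3 other scalings.

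Members with a tissue-restricted paralog were read beside it. Rpl39l, a paralog of Rpl39 best known from testis, was at 0.06, 0.64 and 0.37 in Ctrl-IgG, 0.07, 0.30 and 0.08 in aCSF1R, 4.79, 2.82 and 1.72 in IL-10-Fc, with 2.79, 1.35 and 1.2 in BF10. It was low everywhere and passed the filter only through the IL-10-Fc and BF10 side, whose 6 libraries all lay above the 6 others. As a description only, it was called in IL-10-Fc against Ctrl-IgG (log2 difference 1.55, SE 0.31, limma adjusted p = 0.0032), in BF10 against Ctrl-IgG (log2 difference 1.01), in IL-10-Fc against aCSF1R (1.77) and in BF10 against aCSF1R (1.24). Rpl39l has no near-identical copy among the rows. Its parent Rpl39 was at 1127, 2115 and 949 in Ctrl-IgG, 1039, 858 and 1096 in aCSF1R, 4246, 5731 and 1191 in IL-10-Fc, with 3085, 956 and 1084 in BF10, and was called in IL-10-Fc against aCSF1R (log2 difference 1.63, SE 0.60, limma adjusted p = 0.049).

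Rps4l, which the annotation lists as a transcribed pseudogene, was at 0.87, 0.61 and 2.53 in Ctrl-IgG, 1.82, 2.35 and 2.09 in aCSF1R, 3.1, 1.81 and 4.6 in IL-10-Fc, with 4.68, 4.25 and 5.6 in BF10. It was called in BF10 against Ctrl-IgG (log2 difference 1.40, SE 0.33, limma adjusted p = 0.0094), and the parent Rps4x, an X-linked small-subunit protein, was at 1263, 2263 and 1152 in Ctrl-IgG, 1226, 1092 and 1259.6 in aCSF1R, 5111, 6107 and 1519 in IL-10-Fc, with 3643, 1513 and 1523 in BF10 and was called in IL-10-Fc against aCSF1R (log2 difference 1.60, SE 0.53, limma adjusted p = 0.032). Rps27l, a paralog of Rps27 that p53 is known to induce, was at 334, 713 and 317 in Ctrl-IgG, 306, 263 and 339 in aCSF1R, 685, 729 and 235 in IL-10-Fc, with 592, 225 and 268 in BF10. Its high-sum level was 2.19-fold in Ctrl-IgG, 3.0-fold in IL-10-Fc and 2.41-fold in BF10, and that of Rps27 1.93-fold in Ctrl-IgG, 3.4-fold in IL-10-Fc and 2.52-fold in BF10, and neither was called in any comparison. Rpl3l, the paralog of Rpl3 used in heart and skeletal muscle, was highest in Ctrl-IgG replicate 3 at 1.1 FPKM, followed by aCSF1R replicates 1 and 2 at 0.81 and 0.56. In these 3 libraries the muscle gene Acta1 was at 313, 215 and 238 FPKM and in no other above 30.5. The part of muscle RNA in Rpl3l was not tested. Rpl3 was at 698 to 1416 FPKM, and Rpl10, the parent of the testis paralog Rpl10l that was listed at 0, at 1355 to 6376.

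Members with known roles beyond the ribosome were also higher in the high-sum libraries. Rps6, the small-subunit protein that S6 kinases phosphorylate, was at 1209.8, 1765 and 1054 in Ctrl-IgG, 1094, 917 and 1179 in aCSF1R, 2597, 2704 and 1107 in IL-10-Fc, with 1949, 1077 and 1149 in BF10. Rpl5 and Rpl11, large-subunit proteins that can bind the p53 inhibitor Mdm2 when free of the ribosome, were at 716 to 2510.3 and 1350.1 to 3588 FPKM. In all 3 genes every high-sum library was above the other libraries of its group, and limma called none of the 3 in any comparison. In IL-10-Fc against Ctrl-IgG, for example, Rps6 had a group mean of 2136 ± 892 (SD, n = 3) against 1343 ± 374 FPKM, with a log2 difference of 0.60 (SE 0.38) and a limma adjusted p of 0.24.

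The 7 canonical proteins missed by the naming rule were mixed between groups. In IL-10-Fc against Ctrl-IgG, 2 of the 7 were called higher and 1 lower, beside 10.1% and 23.6% of all tested genes. Rpsa, a small-subunit protein also known as the laminin receptor, was at 1635, 2349.8 and 1472 in Ctrl-IgG, 1538, 1414 and 1577 in aCSF1R, 4149, 4284 and 2759 in IL-10-Fc, with 3999, 2726 and 2579 in BF10 (log2 difference 1.04, SE 0.28, limma adjusted p = 0.015). The stalk protein Rplp1 rose (1.02) and its stalk partner Rplp0 fell (-1.19). In BF10 against Ctrl-IgG none of the 7 was called, and in the high-sum libraries 5 were higher and 2 lower in all 3 groups, beside 17.7% and 45.9% of all tested genes.

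Some genes that build ribosomes were called lower in the comparisons between sides, and none was called higher. Of all tested genes, 23.6% were called lower in IL-10-Fc against Ctrl-IgG, 13.2% in BF10 against Ctrl-IgG, 31.2% in IL-10-Fc against aCSF1R and 14.0% in BF10 against aCSF1R. Of 29 ribosome biogenesis factors 0 were called higher and 17 lower in IL-10-Fc against Ctrl-IgG, with a median log2 difference of -1.18, and 0 and 12 in BF10 against Ctrl-IgG, with a median of -0.80. The median of the 77 members in these comparisons was 0.54 and 0.01. With size factors these 2 medians of the biogenesis factors were -0.66 and -0.72, still below 0. Against aCSF1R, 16 were lower under IL-10-Fc and 8 under BF10. Fibrillarin (Fbl), which methylates ribosomal RNA, was at 167, 75.1 and 174 in Ctrl-IgG, 172, 139 and 149.9 in aCSF1R, 32.3, 28.7 and 125 in IL-10-Fc, with 42.8, 113 and 132 in BF10. Fbl was lower in each high-sum library than in the rest of its group, and it was called only in IL-10-Fc against aCSF1R. Npm1 of the same list went the other way, at 1967, 3534 and 1746 in Ctrl-IgG and 3944, 4241 and 1416 in IL-10-Fc, and was called in no comparison. Of 9 subunits and factors of RNA polymerase I, which transcribes ribosomal RNA, 6 were called lower in IL-10-Fc against Ctrl-IgG and 3 in BF10 against Ctrl-IgG, with none higher, and against aCSF1R 7 and 4. In the high-sum libraries 10 biogenesis factors were higher and 12 lower within every group, and among the polymerase genes 2 and 5, beside 17.7% higher and 45.9% lower over all tested genes.

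Other TOP mRNAs were mixed. Of 14 translation factors and related genes of this class, 1 (Tpt1) was called higher and 2 (Eif4b and Eef1d) lower in IL-10-Fc against Ctrl-IgG, beside 10.1% and 23.6% of all tested genes. In all high-sum libraries 4 were higher and 7 lower, beside 17.7% and 45.9%. The elongation factor Eef1a1 was at 3532, 6127 and 3749.9 in Ctrl-IgG, 3591, 3534 and 3750.5 in aCSF1R, 10381, 8456 and 5742 in IL-10-Fc, with 9163, 6264 and 5756 in BF10, and the elongation factor Eef2 at 571, 176 and 598 in Ctrl-IgG, 586, 615 and 557 in aCSF1R, 224, 140.3 and 1008 in IL-10-Fc, with 304, 981 and 898 in BF10, low in each high-sum library. Among 9 regulators, the mTOR target Eif4ebp1, which restrains translation initiation, was called lower in IL-10-Fc against Ctrl-IgG (-2.54, SE 0.31, limma adjusted p = 0.00018) and in BF10 against Ctrl-IgG (-1.98), while Myc, at 16.7 to 89.5 FPKM, and Mtor were called in no comparison. Against aCSF1R, Rheb was called higher and Eif4ebp1 lower under both IL-10-Fc and BF10. Larp1, Rps6kb2 and Rptor were also called lower in IL-10-Fc against aCSF1R. The shares of all tested genes called higher and lower there were 11.0% and 31.2% for IL-10-Fc and 11.0% and 14.0% for BF10. In all high-sum libraries 0 of the 9 regulators were higher and 7 lower, beside 17.7% and 45.9% of all tested genes. The 78 tested proteins of the mitochondrial ribosome had 3 called higher and 21 lower in IL-10-Fc against Ctrl-IgG, at a median of -0.49 that came to 0.01 with size factors, and 33 higher and 26 lower in all high-sum libraries. In BF10 against Ctrl-IgG 1 of them was called higher and 12 lower, beside 11.8% and 13.2% of all tested genes, and the shares over all genes for the counts above are those given for the other TOP mRNAs. No gene of any of these lists was called in aCSF1R against Ctrl-IgG or in BF10 against IL-10-Fc.

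Nuclear genes of oxidative phosphorylation, many of them as short as the members, had 53 of 84 higher and 11 lower in all high-sum libraries, beside 17.7% and 45.9% of all tested genes, with a median log2 difference of 0.67 and a median transcript length of 625 bases. The median log2 difference of the members between high-sum and other libraries was 0.98. Of 34 mitochondrially encoded genes 23 were higher and 0 lower, with a median of 1.57. Of marker lists of other cell types, the 6 skeletal muscle markers summed to 6.92 to 31.4 FPKM in the high-sum libraries and to 9.62 to 908 in the other 8, the 4 fibroblast markers to 147 to 1743 and 147 to 2246, and the 4 macrophage markers to 218 to 459.5 and 119 to 538. Pooled over the groups these ranges overlap, and the lists were also read within groups. Of 11 lists, 2 had a lower sum in every high-sum library than in the other libraries of its group (endothelial, and carcinoma and keratinocyte), 1 a higher sum (adipocyte), and 8 neither. The higher adipocyte sum was narrow in Ctrl-IgG, at 62.6 in replicate 2 against 62.05 in replicate 3. It rested on Fabp4, while the adipocyte genes Adipoq and Plin1 were neither higher nor lower in this sense. The endothelial markers summed, in FPKM, to 17.4, 14.3 and 33.1 in Ctrl-IgG, 27.2, 39.5 and 29.7 in aCSF1R, 14.3, 12.1 and 27.6 in IL-10-Fc, with 21.2, 44.2 and 47.4 in BF10, the carcinoma and keratinocyte markers to 1.76, 1.09 and 873 in Ctrl-IgG, 346, 888 and 1.94 in aCSF1R, 582, 519.5 and 1286 in IL-10-Fc, with 863, 1318 and 1015 in BF10, and the adipocyte markers to 62.6 to 453 in the high-sum libraries and 33.3 to 189.7 in the other 8. Among the single marker genes 13 were lower in this sense, Csf1r and Cd68 of macrophages, Pecam1 and Cdh5 of endothelium and Col1a1 and Col1a2 of fibroblasts among them, 3 were higher (Adgre1, Cd3d and Fabp4) and 29 neither. Over all tested genes 45.9% were lower and 17.7% higher, and both shares among the marker genes were below these. The part of cell make-up in the level of the members was not tested.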

How the data were processed

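RNA of tumour tissue was sequenced as 12 stranded mRNA libraries on a NextSeq 550, and the authors deposited 1 table of FPKM for 55401 genes, given to 2 decimals and with sums that differ between libraries. The study's list of resources calls this tumour set mixed, and what was mixed is not stated. The submitters' processing notes name STAR 2.7.5a, RSEM 1.3.3 and DESeq2 1.30.0 with the builds mm10 and GRCm38, without giving roles. The deposited tables of 4 comparisons hold the authors' mean normalized counts, log2 fold changes, standard errors, scores and p-values and were not used. Depth per library cannot be read from FPKM, so no counting interval is given. Groups came from the treatment in the labels. Replicate numbers follow sample order and name libraries only.

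Genes (15813) that reached 1 FPKM in 3 or more libraries were transformed to log2(FPKM + 1), a scale that understates changes of low genes, and fitted with limma 3.58.1 (lmFit, contrasts.fit, eBayes with trend) in R 4.3.3 over all 12 libraries without covariates. P-values are two-sided and were adjusted by Benjamini-Hochberg over all tested genes, and a call needed an adjusted p under 0.05 and a fold of at least 1.5. The fit was tested on simulated data. Alternatives were rescaling to an equal sum, size factors, scaling to the other genes, another pseudocount, other filters on low values, 2 covariates, groups fitted alone and each library left out. Removal of the GC and length trend (lowess, span 0.3) and the summing of members with copies were chosen after seeing the data.

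Positions, transcripts and biotypes came from GENCODE M21 (GRCm38), which held 55141 of the identifiers (99.5%). Copies were found with blastn 2.17.0+ (megablast) and start windows came from RefSeq. No pair of libraries was identical (0 pairs). Named members were the 3 highest and 3 lowest by mean, the 3 largest called rises and falls of each pair of groups, 5 paralogs with their parents, the 3 that follow the others most and least, and Rps6, Rpl5 and Rpl11. Others named (Rps13, Rps18 and Rps27a among them) were chosen after their values were seen. Some items that the rule or a list holds are not reported here. The members and all lists were chosen with earlier results of these data known.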

Additional observations from a re-analysis of the deposited data

How the results depend on the processing

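Leaving out each library in turn gave 3 to 41 called members in IL-10-Fc against Ctrl-IgG (10 with all), 4 to 55 in IL-10-Fc against aCSF1R (15), 3 to 8 in BF10 against Ctrl-IgG (6) and 2 to 9 in BF10 against aCSF1R (4), and 0 to 0 in the 3 other comparisons. In IL-10-Fc against Ctrl-IgG the count was 3 with all genes above 0, 3 with the groups fitted alone, 16 with the log2 FPKM sum of the other genes as covariate, 18 with the number in the sample name (low, 1 to 4, or high, 5 to 7) as covariate, 19 with the GC and length trend removed and 6 with members summed with their copies. In IL-10-Fc against aCSF1R it was 9 with all genes above 0, 26 with size factors, 41 with the sample-name number and 37 with the trend removed. In BF10 against Ctrl-IgG it was 15 with the FPKM sum and 3 with the copies, and in BF10 against aCSF1R 15 with the FPKM sum, 7 with the sample-name number, 7 with the groups alone, 7 with the trend removed and 1 with the copies. Apart from the fits with size factors and with summed copies, no share over all tested genes is given for these counts. They show how far the number of called members moved and do not set the members against other genes. The cause of these moves was not tested, except that summing removes the separate rows of the copies. The medians of members with 1 library left out ran from 0.34 to 0.86 in IL-10-Fc against Ctrl-IgG, 0.59 to 1.11 in IL-10-Fc against aCSF1R, -0.32 to 0.21 in BF10 against Ctrl-IgG, 0.00 to 0.44 in BF10 against aCSF1R, -1.02 to -0.33 in BF10 against IL-10-Fc and -0.43 to -0.05 in aCSF1R against Ctrl-IgG. Under the settings that keep all libraries they moved by less than 1 SD of the libraries, except in IL-10-Fc against Ctrl-IgG (1.06) and against aCSF1R (1.41) with size factors. No paired analysis was possible because what the numbers in the sample names stand for is not given and the replicate numbers used here only follow the order of samples. FPKM values carry no depth, which leaves the precision of the low members (Rpl39l, Rpl32l, Rps4l and Rpl3l) unknown.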
